A study of Homo sapiens with 8 samples.

Results

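The genes described here are NEFL, NEFM, NEFH, INA, VIM, NES, REST and NR5A1, 8 of the 19970 protein-coding genes in the GENCODE 44 annotation. They were chosen by name as genes of the neuronal and adrenal features for which HEK293 cells are known, with earlier results of these data known. From each of 8 ATAC-seq peak lists, every peak inside these genes or within 10 kb of their transcription start sites was taken. Peaks of different libraries that shared at least 1 bp were joined, which gave 20 regions at the 8 genes among 101836 regions in the series.

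ATAC-seq cuts accessible DNA with the Tn5 transposase, and a peak marks a stretch with more cut fragments than its surroundings. The cells were HEK293T, a human embryonic kidney line that carries the SV40 large T antigen. Isogenic stable lines had received, by lentivirus and blasticidin selection, EZH2 WT, EZH2 Y641F, EZH2 A677G or the EZH2 H689A/F667I pair of substitutions, with 2 libraries per line that the methods call independent biological replicates. EZH2 is the catalytic subunit of Polycomb repressive complex 2 and methylates lysine 27 of histone H3. In the study, Y641F and A677G stand for a gain of function (GOF), and H689A/F667I for a loss of function (LOF). The introduced EZH2 comes on top of the EZH2 of the host cells in all 4 lines, so the WT line also carries an added copy. The authors describe each line as monoclonal, so a mutation and its clone cannot be told apart. The WT libraries had 64923 and 62514 peaks on chromosomes 1 to 22 and X, the Y641F libraries 26350 and 36598, the A677G libraries 38016 and 46358, and the LOF libraries 47840 and 48755. Between 5 and 15 peaks of each library lay at the 8 genes. Read depth is unknown, and with a shorter list a region is more often without a peak, so peak number is given beside the results that it moves with.

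Intermediate filaments are the ropes of the cytoskeleton. NEFL, NEFM and NEFH encode the light, medium and heavy neurofilament subunits and INA encodes internexin alpha, which together fill the axon of mature neurons. VIM (vimentin) is the filament of mesenchymal and many cultured cells, and NES (nestin) is typical of neural progenitors. REST is a zinc finger repressor that keeps neuronal genes silent outside neurons, and NR5A1 (steroidogenic factor 1) is the nuclear receptor that directs development of the adrenal cortex and gonads and their steroid synthesis.

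The sequences below are shown because they contrast a promoter open in all 8 libraries (VIM), promoters open in 7 of 8 (INA and NES), a promoter with no peak in any library (NR5A1) and a REST intron region that had no peak in Y641F. The promoters are the 250 bases before the transcription start from RefSeq on GRCh38.p14, a table that held 5 of the 8 genes (INA, VIM, NES, REST and NR5A1), and the bases given are identical in hg38. Each is written 5′ to 3′ on the strand of the gene, with CpG dinucleotides, the context of vertebrate DNA methylation, in capitals. They lie at chr10:17227991-17228240 (VIM, plus strand), chr10:103276888-103277137 (INA, plus strand), chr1:156677408-156677657 (NES, minus strand) and chr9:124507400-124507649 (NR5A1, minus strand). The REST intron region is read from hg38 on the plus strand, the strand of REST, at chr4:56958214-56958513 (its central 300 bases).
VIM promoter: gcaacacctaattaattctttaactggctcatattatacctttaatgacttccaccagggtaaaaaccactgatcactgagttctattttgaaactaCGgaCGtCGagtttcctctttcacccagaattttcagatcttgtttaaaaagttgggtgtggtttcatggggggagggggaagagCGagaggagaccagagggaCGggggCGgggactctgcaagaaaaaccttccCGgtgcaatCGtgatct
INA promoter: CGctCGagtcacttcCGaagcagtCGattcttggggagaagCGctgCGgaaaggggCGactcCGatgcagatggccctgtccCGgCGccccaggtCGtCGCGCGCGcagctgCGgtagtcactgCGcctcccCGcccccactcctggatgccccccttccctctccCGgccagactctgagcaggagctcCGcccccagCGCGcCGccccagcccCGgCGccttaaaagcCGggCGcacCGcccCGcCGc
NES promoter: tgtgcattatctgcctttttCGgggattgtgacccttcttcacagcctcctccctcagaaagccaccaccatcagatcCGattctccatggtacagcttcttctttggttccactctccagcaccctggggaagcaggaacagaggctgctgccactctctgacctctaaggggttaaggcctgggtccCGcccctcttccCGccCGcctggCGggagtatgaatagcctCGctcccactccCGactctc
NR5A1 promoter: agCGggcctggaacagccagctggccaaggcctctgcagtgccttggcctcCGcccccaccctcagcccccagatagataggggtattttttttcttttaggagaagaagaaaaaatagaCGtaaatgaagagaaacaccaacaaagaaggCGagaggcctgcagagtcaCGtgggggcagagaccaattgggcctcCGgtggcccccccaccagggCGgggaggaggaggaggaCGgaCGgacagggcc
REST intron, 50.3 kb from the gene start: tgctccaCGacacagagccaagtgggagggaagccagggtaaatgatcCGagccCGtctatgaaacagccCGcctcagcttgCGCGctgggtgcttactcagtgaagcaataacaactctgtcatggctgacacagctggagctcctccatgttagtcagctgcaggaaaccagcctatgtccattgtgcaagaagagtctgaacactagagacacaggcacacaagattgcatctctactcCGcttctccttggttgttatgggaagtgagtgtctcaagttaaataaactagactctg

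CpG number in these 250 bases did not order the genes by peak presence. The INA promoter holds 30 CpG at 72.8% GC, the VIM promoter 8 at 46%, the NES promoter 8 at 58% and the closed NR5A1 promoter 9 at 59.6%, against a median of 11 CpG and 58% GC over 35116 RefSeq promoters. Both RefSeq starts of REST hold 36 CpG. The REST intron stretch holds 7 CpG.

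Promoters were open for most of the genes. A promoter was counted as open when a peak lay within 1 kb of any of its GENCODE start sites. NEFL, NEFM, VIM and REST were open in all 8 libraries, INA and NES in all except Y641F replicate 1, NEFH in 3 libraries and NR5A1 in none. Of all protein-coding genes, 59.8% were open in all 8 libraries and 22.3% in none. Per library, 6 and 7 of the 8 promoters were open in WT, 4 and 6 in Y641F, 7 and 6 in A677G and, in LOF, 6 and 7. Y641F replicate 1 was the lowest library, and the others overlapped between lines. This library also lacked a peak at 15.9% of all coding promoters that were open in both WT libraries, and it had the fewest peaks of all. Without it, 6 of the 8 promoters were open in every remaining library.

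**Figure D1:**
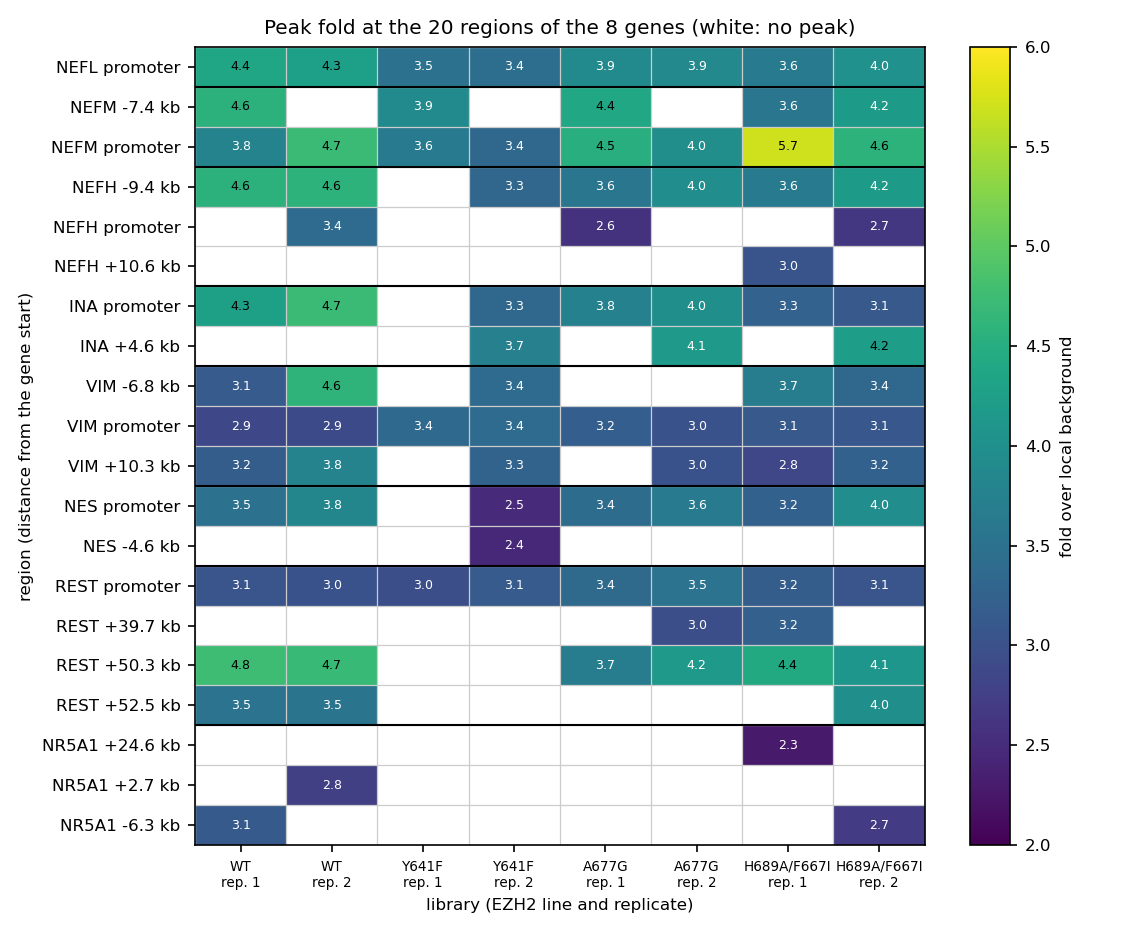
Fold of the peak over local background, as given by the authors, in each of the 20 regions (rows, named by gene and distance from the gene start) and 8 libraries (columns), with white for no peak. The promoters of NEFL, NEFM, VIM and REST are filled across all 8 columns, and the 3 NR5A1 rows are white in the 4 GOF columns.

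The light neurofilament gene NEFL had a single region, its promoter, at chr8:24955167-24956857, which covers the start and the first exon and also lies within 1 kb of the start of the transcript ENSG00000272157. Fold over local background, the ratio that the authors obtained from the peak caller, was 4.36 and 4.26 in WT, 3.51 and 3.44 in Y641F, 3.92 and 3.88 in A677G and, in LOF, 3.65 and 4.02. Both WT values were above the values of all 6 mutant libraries. The median fold over the 18787 regions open in all 8 libraries was also highest in WT, at 4.42 and 4.44, and lowest in Y641F, at 3.90 and 4.09. After scaling each library to its median, the log2 difference of NEFL from WT was -0.16 in Y641F (SE 0.102, adjusted p = 0.383). NEFL width hardly varied, from 1575 to 1690 bp. The NEFL peak was the most uniform in width of all the promoters open in every library.

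The medium subunit gene NEFM had a promoter region at chr8:24913547-24915211 that covers its start and first exon, and it shares that region with the start of ENSG00000272163. Its fold was 3.80 and 4.72 in WT, 3.63 and 3.36 in Y641F, 4.51 and 3.97 in A677G and, in LOF, 5.72 and 4.58. The Y641F libraries were the lowest pair and did not overlap with WT, whereas A677G and LOF did. The value of 5.72 in LOF replicate 1 was the highest fold of any member region in any library and stood at percentile 95.3 of that library's peaks. The scaled log2 difference from WT was 0.32 in LOF (SE 0.145, adjusted p = 0.548) and -0.13 in Y641F (SE 0.145, adjusted p = 0.640). The LOF value rested on single libraries, at 0.16 without LOF replicate 1 and also without WT replicate 1, and it was 0.15 with a width-weighted fold. The Y641F value ranged from -0.28 without WT replicate 1 to 0.02 without WT replicate 2, so its direction turned. The NEFM region held 2 separate peaks in LOF replicate 1 (691 bp in sum) and in A677G replicate 2 (768 bp in sum), and a single peak of 1265 to 1583 bp in the other libraries. A second NEFM region, 7.43 kb upstream at chr8:24905482-24906330 was open in 1 of 2 libraries of WT, Y641F and A677G and in both LOF libraries, with fold 3.56 to 4.57.

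The heavy subunit gene NEFH differed from its partners in that its promoter was mostly closed. The promoter region at chr22:29479804-29480274 had a peak only in WT replicate 2 (fold 3.39), A677G replicate 1 (2.59) and LOF replicate 2 (2.65), and it lies within 1 kb of the starts of RFPL1S and ENSG00000282816. These peaks were weak, with −log10 p from 3.25 to 5.43. The upstream NEFH region, 9.41 kb before the start at chr22:29469808-29470803, was open in all libraries except Y641F replicate 1. Its fold was 4.57 and 4.59 in WT, 3.32 in Y641F replicate 2, 3.56 and 3.96 in A677G and 3.64 and 4.18 in LOF. Both WT values exceeded those of the 5 mutant libraries with a peak. A region over the last exon, 10.6 kb into the gene, was open in LOF replicate 1 alone.

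INA was open at its promoter at chr10:103277007-103277933, which covers the start and first exon and lies within 1 kb of a start of NT5C2. INA fold was 4.27 and 4.73 in WT, 3.33 in Y641F replicate 2, 3.76 and 3.99 in A677G and 3.26 and 3.12 in LOF. WT was highest and did not overlap with any mutant library, and the LOF libraries were the lowest pair. In a fit that admits regions with a peak in at least 1 library per line, and so leaves Y641F replicate 1 out of the INA value, the scaled log2 difference of LOF from WT was -0.44 (adjusted p = 0.411). INA width was 926 and 748 bp in WT, 718 bp in Y641F replicate 2, 698 and 419 bp in A677G and 715 and 311 bp in LOF. Every mutant INA peak was narrower than the WT peaks. An INA intron region, 4.60 kb from the start at chr10:103281741-103282110, had a peak in replicate 2 of each mutant line and in no WT library.

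The VIM promoter at chr10:17227694-17230678 was the widest region at these genes and covers the gene start and first exon of VIM. It also lies within 1 kb of a start of the antisense gene VIM-AS1, and not every annotated VIM start site lies inside it. ATAC-seq has no strand, so the start of VIM and that of VIM-AS1 cannot be told apart there. VIM fold was 2.87 and 2.90 in WT, 3.36 and 3.40 in Y641F, 3.20 and 3.00 in A677G and, in LOF, 3.12 and 3.08. WT was lowest and Y641F highest, with no overlap between these lines and the others. The scaled log2 difference from WT was 0.38 in Y641F (SE 0.085, adjusted p = 0.0525), 0.17 in A677G (adjusted p = 0.369) and 0.15 in LOF (adjusted p = 0.635). The VIM value in Y641F just missed the threshold of 0.05, and lay at percentile 95.5 of the differences over all tested regions. VIM width was 2543 and 2975 bp in WT, 1467 and 2197 bp in Y641F, 2392 and 2303 bp in A677G and, in LOF, 2268 and 2782 bp. Y641F was thus the line with the narrowest VIM peak and the highest VIM fold. Whether fold differed apart from peak width was not tested.

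Both other VIM regions varied in presence. The region 6.76 kb upstream at chr10:17220318-17221478 had a peak in both WT libraries (fold 3.15 and 4.60) and in Y641F replicate 2 (3.41). It also had a peak in both LOF libraries (3.70 and 3.35), and in neither A677G library. The region 10.3 kb downstream of the gene start at chr10:17238570-17239239, beyond the end of VIM, was open in 6 libraries with fold 2.85 to 3.78. It lacked a peak in Y641F replicate 1 and A677G replicate 1.

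NES had the clearest difference in peak width. Its promoter region at chr1:156677269-156678345 covers the single start site and the start of the first exon. NES width was 1077 and 1011 bp in WT, 952 and 936 bp in LOF, 260 and 289 bp in A677G and 236 bp in Y641F replicate 2, and Y641F replicate 1 had no NES peak. The 4 WT and LOF peaks were each at least 936 bp wide and the 3 GOF peaks at most 289 bp, with no overlap. NES fold separated less, at 3.50 and 3.84 in WT, 2.50 in Y641F replicate 2, 3.42 and 3.63 in A677G and 3.24 and 3.96 in LOF. A677G and LOF overlapped with WT in fold, so in A677G the peak was narrower at a fold within the WT spread or just under it. A further NES region, 4.58 kb upstream, was open in Y641F replicate 2 alone (fold 2.44).

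**Figure D2:**
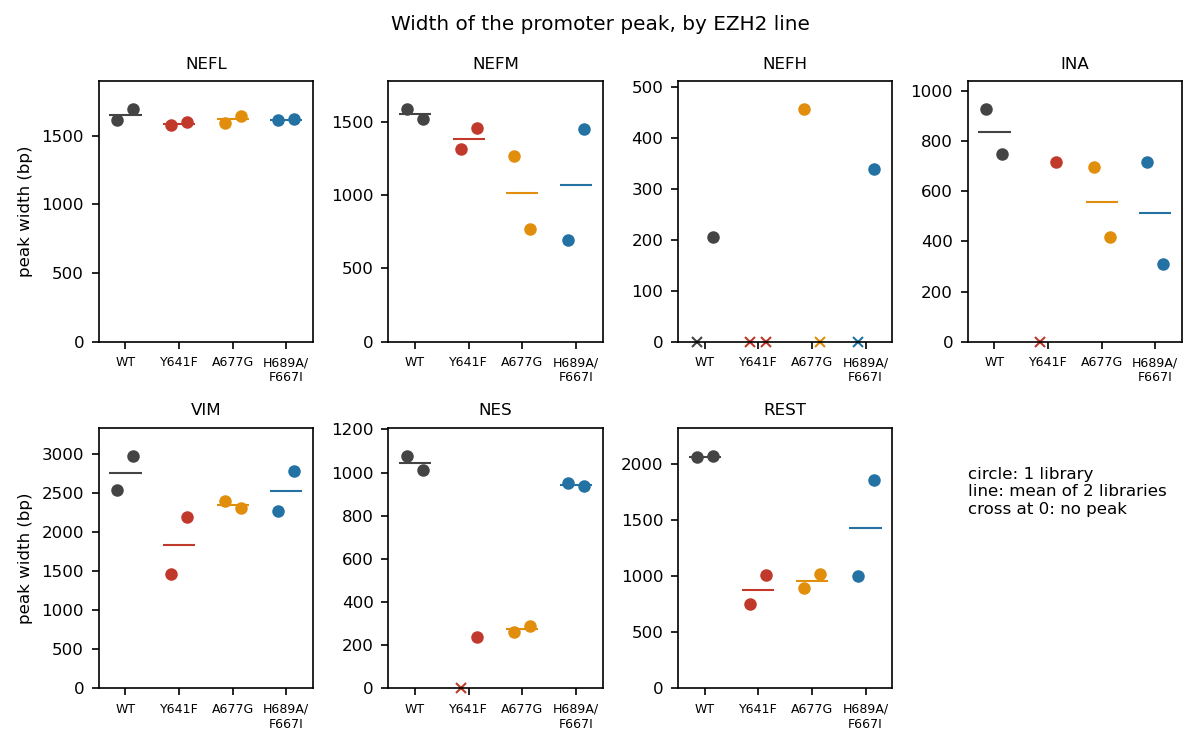
Width in bp of the promoter peak of 7 genes by EZH2 line, with a circle for each library, a line at the mean of 2 libraries and a cross at 0 for a library without a peak. Widths are summed where a region held 2 peaks, as at NEFM in 2 libraries. The NES peaks of the GOF lines, 236 to 289 bp, lie far below the WT and LOF peaks, 936 to 1077 bp, whereas NEFL stays between 1575 and 1690 bp.

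The NES difference was tested by limma on log2 width over the 29980 regions with a peak in at least 1 library per line, with Y641F replicate 1 left out of the NES value. The log2 difference was -2.14 in Y641F (SE 0.338, adjusted p = 0.0471), -1.93 in A677G (SE 0.276, adjusted p = 0.114) and -0.14 in LOF (SE 0.276, adjusted p = 0.910). The Y641F value rests on 1 library, which is assumed to vary as the libraries of the other lines do. Between the GOF and the WT and LOF lines it was -1.96 (SE 0.218, adjusted p = 0.0371), at percentile 0.194 of all tested regions. In that test, 2.03% of regions were called in Y641F, 0% in A677G, 0% in LOF and 0.804% between GOF and the other lines, and 1 of 9 member regions tested, that of NES, in each of the first and the last. Peaks were narrower in the mutants all over the genome, with a median log2 difference of -0.52 in Y641F, -0.35 in A677G, -0.22 in LOF and -0.32 between GOF and the other lines. When each library was scaled to its own median width, an alternative chosen after seeing the data, the NES difference was -1.66 in Y641F (adjusted p = 0.203) and -1.65 between GOF and the other lines (adjusted p = 0.127). Both calls were lost, and 0 of the 29980 regions were called in any comparison by limma, with 4356, 3019, 1847 and 3933 at an unadjusted p under 0.05 in Y641F, A677G, LOF and the GOF comparison.

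REST had 4 regions. Its promoter region at chr4:56907447-56909567 covers its main start sites and first exon. REST fold was 3.06 and 3.00 in WT, 2.96 and 3.15 in Y641F, 3.38 and 3.52 in A677G and, in LOF, 3.18 and 3.05. A677G was the highest pair and did not overlap with the other lines. The scaled log2 difference from WT was 0.26 in A677G (SE 0.086, adjusted p = 0.216), 0.16 in Y641F (adjusted p = 0.307) and 0.09 in LOF (adjusted p = 0.814). REST width was 2060 and 2072 bp in WT, 748 and 1011 bp in Y641F, 896 and 1021 bp in A677G and, in LOF, 999 and 1858 bp. All mutant libraries had a narrower REST peak than WT, and LOF replicate 1 lay within the range of the GOF libraries. The log2 difference of width was -1.25 in Y641F (SE 0.302, adjusted p = 0.0595), -1.11 in A677G (SE 0.302, adjusted p = 0.165), -0.60 in LOF (SE 0.302, adjusted p = 0.647) and -0.88 between GOF and the other lines (SE 0.214, adjusted p = 0.0835). The LOF value was -0.15 without LOF replicate 1 and -1.05 without LOF replicate 2, so 1 library carried most of it. The value in Y641F passed without Y641F replicate 2 (-1.47, adjusted p = 0.043) and without either LOF library (adjusted p = 0.0474 and 0.0485), and was -0.65 (adjusted p = 0.280) when scaled to the median width of each library.

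Both REST intron regions that were open in the 2 WT libraries lacked a peak in Y641F. The region 50.3 kb from the gene start at chr4:56958200-56958527 had fold 4.76 and 4.71 in WT, 3.67 and 4.17 in A677G and 4.42 and 4.11 in LOF, and no peak in Y641F. WT was again highest at this region, whose sequence is printed above. The region 52.5 kb from the start, which lies within 1 kb of the start of ENSG00000269949, had fold 3.53 in both WT libraries and 3.99 in LOF replicate 2, and no peak in any of the 4 GOF libraries or in LOF replicate 1. An intron region at 39.7 kb was open in A677G replicate 2 and LOF replicate 1 only.

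NR5A1 was the closed gene of the set. No library had a peak within 1 kb of its 4 annotated start sites. Outside the promoter, an intron region 2.72 kb from the start at chr9:124504264-124504698 was open in WT replicate 2 (fold 2.76), an exonic region at 24.6 kb in LOF replicate 1 (2.29) and a region 6.28 kb upstream at chr9:124513699-124514316 in WT replicate 1 (3.13) and LOF replicate 2 (2.69). The −log10 p of these 4 peaks was 3.35 to 4.52, at percentiles 2.43 to 29.1 of their libraries, and the GOF libraries had no NR5A1 peak. With so few and such weak peaks, no difference between the lines was detectable at NR5A1.

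Loss and gain were counted over all 20 regions. A region was lost in a mutant when both WT libraries and neither mutant library had a peak, and gained in the reverse case. Of the 11 member regions open in both WT libraries, 2 were lost in Y641F (REST at 50.3 and 52.5 kb), 2 in A677G (REST at 52.5 kb and VIM upstream) and 0 in LOF. Among all regions open in both WT libraries, Y641F lacked 35.3%, A677G 20.8% and LOF 14.2%. Of all coding promoters open in both WT libraries, 6.53%, 2.1% and 1.45% were lost in the same order. The member regions open in both WT libraries include the promoters of NEFL, NEFM, INA, VIM, NES and REST, and none of these was lost. The share over all regions is therefore not a like background for the members. Of the 5 member regions closed in both WT libraries, 0 were gained in any mutant, beside 1.11% of all such regions in Y641F, 1.65% in A677G and 2.83% in LOF. With 2 libraries against 2, an exact permutation test cannot give a p under 0.33, so presence was not tested. Y641F losses were 7 of 11 when Y641F replicate 2 was left out and 4 of 13 without WT replicate 1, beside 54.8% and 47.3% of all regions. The Y641F lists were also the shortest. With each list held to its 26350 strongest peaks, Y641F lost 2 of 7 member regions, A677G 0 and LOF 1, beside 11.6%, 6.82% and 6.09% of all regions. At a −log10 q of 5 or more, they lost 5, 4 and 2 of 6, beside 44.8%, 29.1% and 20.6%, so whether the members exceeded the background depended on the setting.

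The main limma tests covered the promoters of NEFL, NEFM, VIM and REST, the only member regions with a peak in all 8 libraries. By limma on scaled log2 fold, 0 of these 4 passed in any comparison, against 1.23% of the 18787 tested regions in Y641F, 0% in A677G, 0% in LOF and 0.0373% between GOF and the WT and LOF lines. The Y641F share fell to between 0% and 0.0877% with any 1 library left out and to 0.0373% with quantile normalisation. At an unadjusted p under 0.05, 1 of the 4 passed in Y641F (VIM), 1 in A677G (REST), 1 in LOF (NEFM) and 2 between GOF and the other lines (VIM and REST), beside 4011, 2749, 1707 and 3455 of the 18787 regions. On width, limma called 0 of 4, against 6.48% in Y641F, 0% in A677G, 0% in LOF and 2.24% between GOF and the others, with 2, 1, 0 and 1 of the 4 at an unadjusted p under 0.05 beside 5929, 3031, 1624 and 4793 of all regions. The Y641F and GOF shares were 0% without either WT library, and 21.5% and 15.8% without Y641F replicate 2. On −log10 p, which grows with depth and was scaled like fold, 0 of 4 were called, against 1.83%, 0.128%, 0.00532% and 0.554% in the same order, with 1, 0, 1 and 1 at an unadjusted p under 0.05 beside 3619, 2421, 1711 and 3007 of all regions. The nearest was VIM in Y641F, with a log2 difference of 0.79 (SE 0.203, adjusted p = 0.0556).

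The contrast of the 4 GOF libraries with the 4 WT and LOF libraries was also tested gene by gene on scaled log2 fold, with all 70 assignments enumerated in an exact two-sided permutation test, whose smallest possible p is 0.0286. REST reached it, with a difference of 0.17 and all 4 GOF libraries above the other 4 after scaling (exact p = 0.0286, unadjusted, 1 of 4 such tests). Without scaling, the REST fold of Y641F replicate 1 (2.96) was the lowest of the 8, and the difference was 0.08 (limma, adjusted p = 0.472). VIM was higher by 0.20 (exact p = 0.0857), NEFM differed by -0.19 (exact p = 0.286) and NEFL by -0.05 (exact p = 0.343). By limma over all regions, the REST value had adjusted p = 0.187 and the VIM value adjusted p = 0.126. Libraries of a line are not separate lines, so the limma p-values describe the spread between libraries. The permutation test treats the 8 libraries as exchangeable, so its p-values mix differences between lines with those between libraries. With whole lines assigned, 2 against 2, no exact p under 0.33 is possible, so the exact p of REST is not a test between lines.

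**Figure D3:**
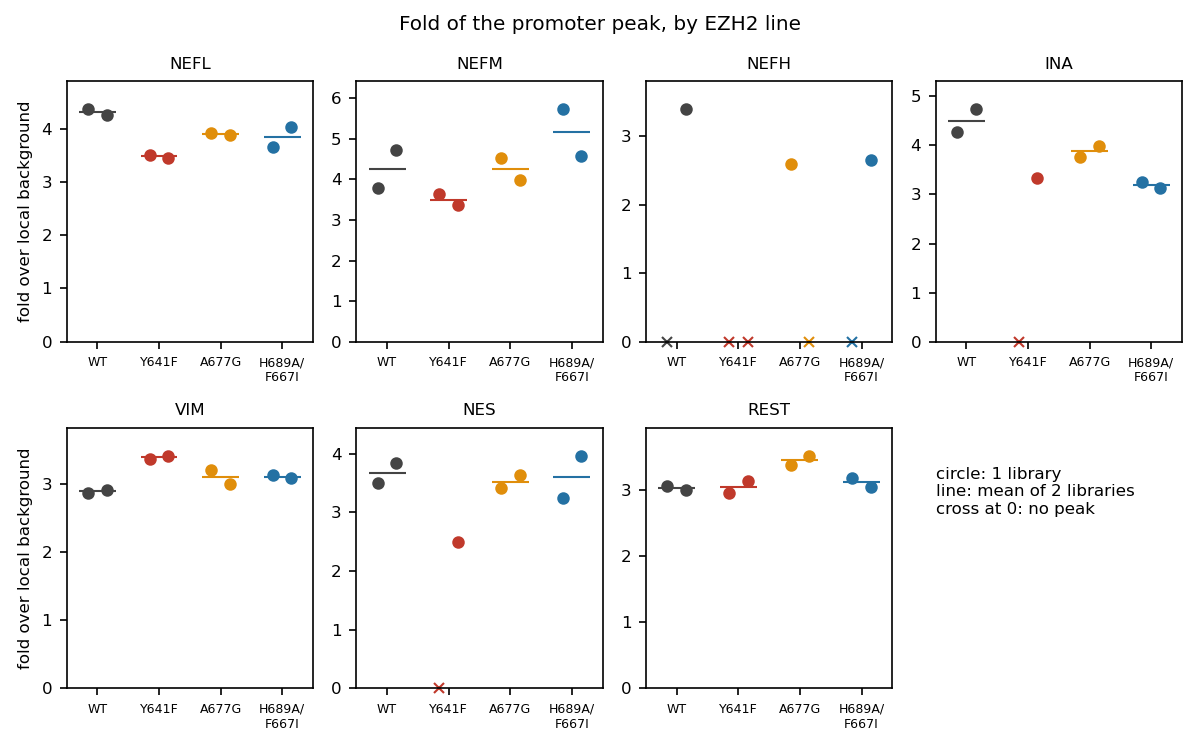
Fold over local background of the promoter peak of 7 genes by EZH2 line, unscaled, with a circle for each library, a line at the mean of 2 libraries and a cross at 0 for a library without a peak. VIM is lowest in WT (2.87 and 2.90), NEFL and INA are highest in WT, and REST is highest in A677G (3.38 and 3.52).

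**Figure D4:**
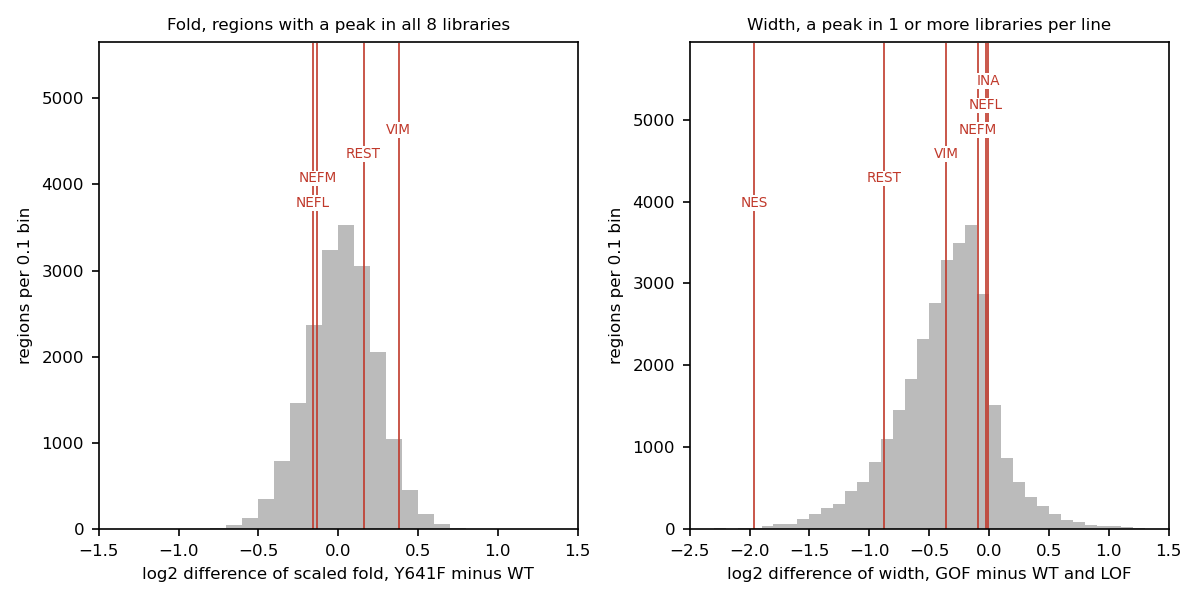
Number of regions by log2 difference in bins of 0.1, with red lines for the member promoters. Left, scaled fold in Y641F minus WT over 18787 regions, where VIM lies at 0.38. Right, width in GOF minus WT and LOF over 29980 regions, where NES lies at -1.96 in the far lower tail and REST at -0.88.

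Motifs of the repressor and of the nuclear receptor were sought on both strands, in the 2001 bases around each gene start and in the central 1001 bases of each region. The REST site was taken as TTCAGCACC and GGACAGCGC with 2 free bases between them and at most 4 mismatches over the 18 letters. Of the 8 gene starts, only that of NEFM had such a match, at position -920 relative to its start with 2 mismatches, outside its promoter peak. At all protein-coding gene starts, 4.49% had a match at that limit and 0.451% had a match with at most 2 mismatches. None of the 20 member regions held a REST match in its central 1001 bases, against 1.79% of all regions. The NR5A1 site CAAGGTCA was found at the VIM start, as at 11.4% of all gene starts. It was absent from the central 1001 bases of all 20 member regions, against a presence in 6.06% of all regions. The VIM promoter region is longer than the stretch searched, at 2985 bp, so whether the VIM site lies inside it was not determined. Matches of letters say nothing of binding in these cells.

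Lists of related genes gave the surroundings of these results. Genes of 9 lists were counted as open by the same 1 kb rule. Of 10 other intermediate filament genes, 9 were open in each WT library, 6 and 9 in Y641F, 10 and 9 in A677G and 9 in each LOF library. Of 20 neuron markers, 14 to 19 were open and of 13 neural progenitor markers, 6 to 10. Of the 12 REST corepressor genes, 11 or 12 were open in every library. Of 20 genes known as REST targets, 20 and 18 were open in WT, 11 and 16 in Y641F, 16 in each A677G library and 17 and 18 in LOF. Y641F replicate 1 was lowest or joint lowest in all of these lists, and among all coding genes it had 61.3% open promoters against 67.7% to 74.2% in the other libraries.

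Both adrenal lists held open and closed promoters, without a clean split by role. Of 19 adrenal cortex genes, 9 to 12 were open. Closed in all 8 libraries were the steroid enzymes CYP11A1, CYP17A1, CYP11B2 and HSD3B2, the corticotropin receptor gene MC2R and its accessory protein gene MRAP. STAR, which carries cholesterol into mitochondria, was open in Y641F replicate 2 alone, and CYP11B1 in LOF replicate 1 alone. The developmental factors GATA4, GATA6 and WT1 and NR5A2, the closest relative of NR5A1, were open in all 8. Of 12 chromaffin genes, 9 were open in each WT library, 6 in each Y641F library, 6 and 8 in A677G and 7 and 9 in LOF. These were 50% to 75% of that list, a range that overlaps with that of all coding genes. CHGA and CHGB, which encode granins of secretory granules, were open in all 8 libraries. DBH and SLC18A1, for noradrenaline synthesis and amine transport, and the developmental factor gene PHOX2A were open in none. TH was open in 3 libraries, PNMT in 5 and INSM1 in 4. In the cortex list, the steroid sulfotransferase gene SULT2A1 was open in both WT and both LOF libraries only, and FDX1 and FDXR, which pass electrons to the mitochondrial steroid enzymes, in all 8. Open promoters were thus present in both adrenal lists, but not at several of their defining genes. As to the line itself, 9 of 11 kidney and HEK markers were open in all 8 libraries, among them PAX2, LHX1 and EPCAM, while 0 of 6 blood markers were, with PTPRC, CD3E and SPI1 closed in all.

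**Figure D5:**
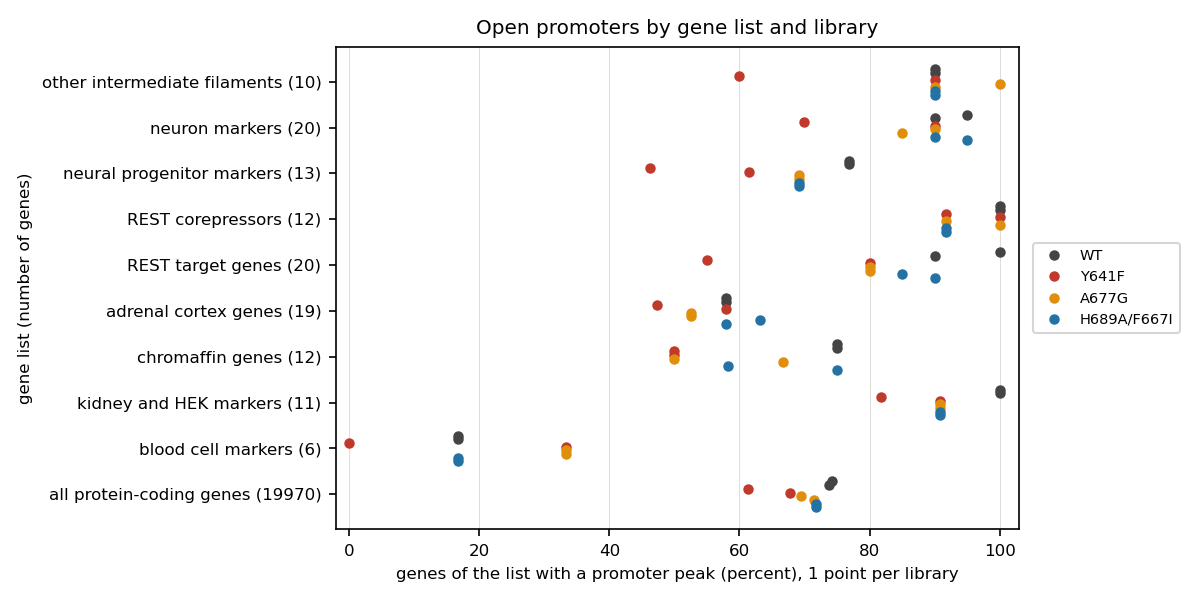
Percent of the genes of each list with a promoter peak, with 1 point per library coloured by EZH2 line and the number of genes in parentheses. Kidney and HEK markers lie at 81.8% to 100%, adrenal cortex genes at 47.4% to 63.2% and blood markers at 0% to 33.3%, beside 61.3% to 74.2% for all coding genes.

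Promoter losses in the lists were most frequent in Y641F. Of 90 listed genes open in both WT libraries, Y641F lost 9, A677G 4 and LOF 4, beside 6.53%, 2.1% and 1.45% of all coding promoters. In Y641F these included the progenitor gene PROM1, the synaptic REST targets SYT4 and GRIN1, the chromaffin genes TH (tyrosine hydroxylase), PNMT (which makes adrenaline) and INSM1, the steroid sulfotransferase gene SULT2A1 and the kidney factor gene PAX8. SULT2A1, TH and PAX8 were among those lost in A677G, and SYT4, PAX8 and the corepressor gene SIN3B among those lost in LOF. Of 21 listed genes closed in both WT libraries, HBB was gained in A677G, and 0 in Y641F and LOF, beside 0.307%, 0.205% and 0.614% of all coding promoters. The loss of PAX8 was shared by the 3 mutant lines, which are compared with the same WT libraries.

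By limma on scaled fold, 4 listed promoters passed in Y641F, each higher than WT, and 0 passed in A677G, in LOF or between GOF and the other lines. They were TUBB3, a neuronal tubulin and REST target (log2 difference 0.47, adjusted p = 0.0428), PAX6, a neural progenitor factor (0.59, adjusted p = 0.0428), and the adrenal and gonadal factors GATA4 (0.52, adjusted p = 0.0459) and GATA6 (0.51, adjusted p = 0.0431). Each of the 4 lost its call when any 1 library was left out, with quantile normalisation and with a peak in at least 1 library per line (adjusted p up to 0.189), and each kept a positive difference. Without scaling, TUBB3 and PAX6 passed and GATA4 and GATA6 did not. Among the 9791 coding promoter regions tested, 107 were higher and 13 lower in Y641F. That split depends on the scaling, since over all tested regions 160 were higher and 71 lower, against 88 and 1087 without scaling and 3 and 4 with quantile normalisation. The median log2 difference of these was 0.06, that of the 10 tested REST targets -0.03, of the 13 neuron markers 0.01 and of the 8 REST corepressors 0.16.

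The promoters most like each tested gene were found by Pearson correlation of scaled log2 fold over the 8 libraries, among those 9791 regions, as a description. NEFL was most like the shared promoter region of ECD and FAM149B1 (r = 0.98) and that of SRSF11 (r = 0.97). NEFM was most like ZDHHC5 (r = 0.97) and KCTD8 (r = 0.94). VIM was most like the region of PAX6, which it shares with ENSG00000285283 (r = 0.99), and RNF8 (r = 0.99), and REST was most like AFF4 (r = 0.98) and C4orf3 (r = 0.98). The 8 points are pairs of libraries from 4 lines, and 0.174%, 0.123%, 2.25% and 0.511% of regions reached r above 0.9 with NEFL, NEFM, VIM and REST in that order.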

How the data were processed

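ATAC-seq peak lists of 8 libraries were analysed. Per the study's methods and the submitters' processing notes, the authors trimmed reads with Trim Galore 0.6.5, aligned them to GRCh38/hg38 with BWA 0.7.17 and called broad peaks in each library with MACS2 2.2.7.1. Tn5 shift and removal of mitochondrial reads are not given in the sources used here. The deposited fold is a ratio of pileup to local background, and the deposited −log10 p and −log10 q are those of the peak caller. Each is 1 value per called peak, so fold and −log10 p were not tested apart from peak width. The deposited score was not used. Peaks past a −log10 q of about 1 are listed, so a region without a peak can still hold signal.

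Groups were taken from the sample titles. The members and lists were chosen with earlier results of these data known. Where a region held several peaks of a library, the highest fold and −log10 p and the summed width were used. Log2 fold and −log10 p were centred on the median of each library over tested regions, log2 width was not, and limma 3.58.1 (R 4.3.3, trend) was fitted to all 4 lines, with Benjamini-Hochberg adjustment over all tested regions and a threshold of 0.05. Tested regions had a peak in all 8 libraries. The study's own read-based test was not repeated. The fold test of GOF against WT and LOF was run on simulated data with 200 planted log2 differences of size 1. It recovered 190 of them, with 8 false calls. Smaller differences, such as those of fold at the member genes, were not simulated. Python 3.11.15 and pysam 0.24.0 were used, with GENCODE 44 and hg38.

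A few items are not reported here. All member genes were named, with listed genes that were lost, gained or called (up to 6 a list) and the 2 most alike genes per tested promoter. Alternatives were a −log10 q of at least 5, equal peak numbers (26350), 50% cover, a window of 2 kb, merging under 1 kb, other scaling, a peak in at least 1 library per line, a replicate block and leaving out each library.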

Additional observations from a re-analysis of the deposited data

Results flagged for a closer look

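The −log10 p of the VIM promoter peak was 8.92 and 9.02 in WT, 7.43 and 7.78 in A677G, 7.25 and 7.53 in LOF and 10.4 and 10.1 in Y641F. Both Y641F libraries lay above WT while both A677G and both LOF libraries lay below it. The mean of Y641F was higher by 2.67 than that of A677G and by 2.89 than that of LOF, and these differences between lines were not tested. After scaling to the median of each library, which was lower in each mutant library than in WT, the log2 difference of A677G from WT was 0.15 and that of LOF 0.03, so the opposite directions hold for the unscaled values alone.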

How the results depend on the processing

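The counts of lost and gained regions are small and moved with the settings. Shares over all regions stand beside each count. Lost regions numbered 5 in Y641F (44.8%), 4 in A677G (29.1%) and 2 in LOF (20.6%) of 6 when only peaks past a −log10 q of 5 were used. With a peak cover of at least 50%, 4 of 9 were lost in Y641F (49.2%), and with a window of 2 kb 1 of 8 in A677G (20.8%). With equal peak numbers Y641F lost 2 of 7 (11.6%), A677G 0 (6.82%) and LOF 1 (6.09%). Leaving out each library gave 2 to 7 lost in Y641F (7 without Y641F replicate 2, 54.8%, and 4 without WT replicate 1, 47.3%), 2 to 3 in A677G and 0 to 1 in LOF, and 0 to 2, 0 to 2 and 0 to 3 gained. The highest gained counts, each of 5, came without Y641F replicate 1 (18.9%), A677G replicate 1 (27.6%) and LOF replicate 2 (29%).

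Fold calls stayed at 0 under all alternatives that gave a value. With that q limit no member region was left to test. Width calls rose from 0 to 1 in Y641F and in GOF when a peak in at least 1 library per line sufficed (NES), and ranged from 0 to 2 in both comparisons over libraries left out. Without Y641F replicate 2, where 21.5% of all regions were called in Y641F and 15.8% in GOF, they were REST (-1.47, adjusted p = 0.043 in Y641F, and -0.99, adjusted p = 0.0469 in GOF) and VIM (-0.91, adjusted p = 0.021 in Y641F, and -0.50, adjusted p = 0.0371 in GOF), without Y641F replicate 1 the call was NES, and REST passed in Y641F without either LOF library (adjusted p = 0.0474 and 0.0485). Without centring, −log10 p gave 2 calls in Y641F (45.3% of all regions) and 2 in GOF (26.3%). With centred width, the NES difference of LOF from WT turned from -0.14 to 0.12, neither called. A replicate block left 0 fold, width and −log10 p calls, and VIM in Y641F at 0.38 (adjusted p = 0.0607). Same-numbered libraries did not deviate together in scaled fold at regions open in all 8 libraries (correlations -0.02 to 0.04). Pairing by replicate number in peak presence or in unscaled values was not tested.

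Depth is unknown, peaks are thresholded by library, and each line has 2 libraries.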
